A study of Schizosaccharomyces pombe with 6 samples.

Results

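The comparison described here sets the chromosomal contacts of fission yeast cells arrested in M phase against those of cells arrested in G1 phase. It uses 4 of the 6 libraries of the series, 2 biological replicates for each arrest, and the deposited table of each arrest pools both replicates. The M phase cells were strain MY286, which is h- lue1 nuc2-663, and the G1 phase cells were strain MY291, which is h- lue1 cdc10-129. Both were grown at a lower temperature and then held at 36°C for 4 h, the restrictive temperature of both alleles, and both share the h- lue1 background. The 2 libraries of the G2 phase, from strain MY284 with the cdc25 allele labelled cdc25-22, had the same shift and are given only for reference. Each arrest is 1 strain with its own allele and its own libraries, so phase, mutation, strain and library cannot be told apart. The paper gives a lower level of synchronization for the M phase cultures than for the G1 phase cultures. For M phase it is an estimate from traits of the arrest. Contacts were captured by GCC (Genome Conformation Capture), in which cross-linked chromatin is cut with the restriction enzyme AseI, ligated and sequenced. A contact is a pair of AseI fragments, and its count is the number of read pairs that join them. Members were all pairs of nuclear fragments that do not lie next to each other and have no end in the rDNA, and of 9464 nuclear fragments 9445 lie outside the rDNA. After this filter M phase held 1277995 counts in 37944 pairs and G1 phase 1207616 counts in 46227 pairs. In M phase 29602 pairs and in G1 phase 37412 pairs had a single count. In G2 phase the same filter kept 1387785 counts in 41456 pairs.

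The nuc2 gene encodes a subunit of the anaphase-promoting complex, the ubiquitin ligase that lets sister chromatids separate, and cells without it stop in mitosis with condensed chromosomes. The cdc10 gene encodes a subunit of MBF, the transcription factor that switches on the genes of DNA replication, and cells without it stop in G1 before DNA is copied. In interphase the centromeres of fission yeast gather at the spindle pole body, chromosome ends gather at the nuclear envelope, and condensin is known to compact the arms in mitosis. Much of what repeats in this genome lies in the centromeres, the subtelomeres, the mating-type region, the Tf2 retrotransposons with their solitary long terminal repeats (LTRs), and the tRNA and 5S rRNA genes.

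The fragments on which the results below turn are printed here, because their sequence shows why some of them can be told from every other place in the genome and some cannot. Each runs 5′ to 3′ on the plus strand of the RefSeq assembly ASM294v3, to which the coordinates of the tables match here without a shift, with the whole AseI site (ATTAAT) at both ends. In the first and the fourth the capitals mark the AseI sites. In the second and the third they mark the 83 bases that each fragment shares with the other on the opposite strand, and in the fifth the 73 bases of the tRNA gene for valine, which is read from the other strand.
II:36990-37031: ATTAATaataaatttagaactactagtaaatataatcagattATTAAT
II:2129091-2129315: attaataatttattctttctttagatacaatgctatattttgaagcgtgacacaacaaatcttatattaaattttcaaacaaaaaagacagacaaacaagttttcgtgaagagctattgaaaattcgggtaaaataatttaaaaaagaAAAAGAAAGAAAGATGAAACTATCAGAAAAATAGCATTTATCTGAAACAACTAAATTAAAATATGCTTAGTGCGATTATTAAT
II:2137012-2137202: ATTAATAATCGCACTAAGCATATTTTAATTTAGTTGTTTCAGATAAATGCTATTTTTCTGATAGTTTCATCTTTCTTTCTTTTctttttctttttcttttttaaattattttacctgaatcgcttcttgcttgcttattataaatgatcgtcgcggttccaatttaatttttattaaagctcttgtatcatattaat
II:94051-94326: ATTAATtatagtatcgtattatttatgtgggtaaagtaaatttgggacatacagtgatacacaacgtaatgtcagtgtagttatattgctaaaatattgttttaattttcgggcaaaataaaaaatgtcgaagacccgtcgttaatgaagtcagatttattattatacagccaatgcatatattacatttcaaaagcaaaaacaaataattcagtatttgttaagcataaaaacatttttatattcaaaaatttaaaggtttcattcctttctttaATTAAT
I:702986-703170: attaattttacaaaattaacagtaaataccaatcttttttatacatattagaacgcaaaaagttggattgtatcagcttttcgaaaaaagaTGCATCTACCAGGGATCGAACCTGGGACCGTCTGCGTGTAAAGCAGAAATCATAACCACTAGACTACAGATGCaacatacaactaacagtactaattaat
The first held the largest rise in M phase. The second and the third flank the silent mating-type cassette mat3 and held the deepest fall. The fourth is 1 of 4 copies in an array of genes for malate permease, and the other 3 copies carry the same 282 bases. The fifth lies in the gene-rich arm of chromosome I and shares its tRNA with a fragment on chromosome III.

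Counts were scaled to CPM, counts per 1000000 counts of the filtered table. Ratios are M over G1 on that scale, with exact Clopper-Pearson intervals at the 95% level, and shares have Wilson intervals at the same level. With the replicates pooled there is no spread between replicates, no test was made, and the intervals cover counting error only. A fragment or a pair of bins was read as higher or lower when its ratio reached 2-fold among those with at least 100 counts over both phases. Fragments were called repeat-free when no 50 bp stretch of theirs recurs in the nuclear genome, which held for 8738 of 9461 fragments matched to the reference. Very short fragments pass by construction, and among the 18 repeat-free fragments with at least 100 counts 8 were too short to hold such a stretch, II:36990-37031 among them.

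Most counts joined fragments that share repeated sequence, which means that a 50 bp stretch of 1 fragment recurs in the other or in its direct neighbour. These contacts held 95.7% of the counts in M phase (interval 95.7 to 95.8) and 94.8% in G1 phase (interval 94.8 to 94.9). An end in such sequence fits more than 1 place, and how it was placed is not given in the sources used here. Contacts with an unmatched fragment, 19463 counts in M phase and 16400 in G1 phase, were put in neither kind. Contacts without shared sequence numbered 34950 in M phase and 45818 in G1 phase. In CPM they were lower in M phase, with a ratio of 0.721 (interval 0.711 to 0.731), and G2 phase stood between them at 0.883 of G1 phase. Contacts between 2 repeat-free fragments, the smallest group, numbered 3455 in M phase and 2603 in G1 phase, a ratio of 1.25 (interval 1.192 to 1.32). In G2 phase they numbered 8214. With fragments free of 25 bp repeats as well, the ratio was 1.25, and without the pair of fragments that rose most it was 1.06 (interval 1.0004 to 1.13).

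Of 683 fragments with at least 100 counts, 3 were at least 2-fold higher in M phase (0.439%) and 71 were at least 2-fold lower (10.4%). The median log2 ratio was -0.22, with a ratio above 1 in 188 fragments and below 1 in 495. Scaled by that median 41 fragments were lower, and with each pair counted 1 time 2 of 350. The largest rise stood at a pair of neighbouring fragments near the left end of chromosome II. The fragment II:36990-37031, of 42 bp, had 223 counts in M phase and 24 in G1 phase, 8.78-fold higher (interval 5.75 to 14.0), and 21 in G2 phase. Its left neighbour II:34939-36989, which holds the pseudogene SPBC1348.12 of a zinc finger protein, had 342 counts in M phase and 62 in G1 phase, 5.21-fold higher (interval 3.97 to 6.95), and 95 in G2 phase. G1 and G2 phase lay close to each other at both fragments, and M phase lay far above them.

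Neither fragment holds a stretch of 25 bp that recurs elsewhere. The contacts of the pair were spread over the genome: 524 partners in M phase against 66 in G1 phase, of which 508 in M phase and 61 in G1 phase had a single count. With only pairs of at least 3 counts neither fragment was called, and III:298787-299954 alone was higher. The rise was present towards each chromosome, with 239 counts in M phase and 28 in G1 phase towards chromosome I, 217 in M phase and 37 in G1 phase towards chromosome II, and 109 in M phase and 21 in G1 phase towards chromosome III. Of these contacts 516 in M phase and 69 in G1 phase went to repeat-free fragments. The strongest partner of the larger fragment was I:4612395-4613054, a repeat-free fragment between genes, with 21 counts in M phase and 1 count in G1 phase. The pair took part in 14.9% of all contacts between repeat-free fragments in M phase and in 2.65% of them in G1 phase. The fragments beyond them had few counts. Directly on the right, II:37032-37079 had 11 counts in M phase and 3 in G1 phase. Its ratio of 3.46 had an interval that held 1 (0.915 to 19.3), so where the rise ends on this side is not settled. II:33041-34938, on the left, had 7 counts in M phase and 13 in G1 phase, and II:37080-38258, further right, had 22 in M phase and 26 in G1 phase.

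**Figure D1:**
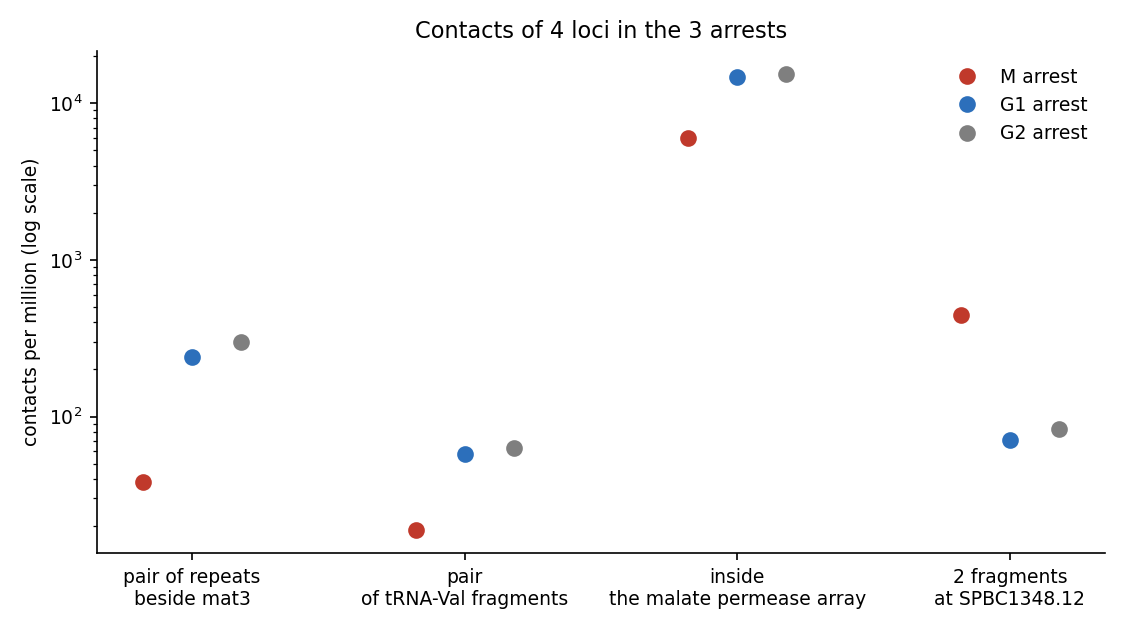
CPM (vertical axis, log scale) at 4 loci in M arrest (red), G1 arrest (blue) and G2 arrest (grey), 1 pooled table each and so without error bars. The repeats beside mat3, the tRNA-Val fragments and the malate permease array are lowest in M arrest, and the fragments at SPBC1348.12 are highest there, while G1 and G2 arrest lie near each other.

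The deepest fall was at the mating-type region. Fission yeast keeps a silent copy of its mating-type genes in the mat2-mat3 heterochromatin, and the repeats printed above lie on both sides of the cassette mat3. II:2137012-2137202 had 59 counts in M phase and 297 in G1 phase, a log2 ratio of -2.41. II:2129091-2129315 had 61 counts in M phase and 303 in G1 phase, a log2 ratio of -2.39. Most of this is a single contact, that of the 2 repeats with each other, which had 49 counts in M phase and 291 in G1 phase (ratio 0.159, interval 0.115 to 0.216) and 416 in G2 phase. The region between them was less changed. All contacts inside it, the repeats included, numbered 6155 in M phase and 6278 in G1 phase (ratio 0.926, interval 0.894 to 0.960), and its contacts with the rest of the genome numbered 5322 in M phase and 4819 in G1 phase (ratio 1.04). Those without shared sequence numbered 306 in M phase and 406 in G1 phase (ratio 0.712, interval 0.612 to 0.828).

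The malate permease array lies near the left end of chromosome II, where the genes SPBPB10D8.04C to SPBPB10D8.07C follow each other in near-identical units, each with an LTR. It was singled out after its values were seen. All 24 of its fragments that reached 100 counts were at least 2-fold lower in M phase, with a median log2 ratio of -1.53, and they make up 24 of the 71 fragments called lower. These calls do not take fragment length into account, which is described below. Contacts inside the array numbered 7619 in M phase and 17860 in G1 phase (ratio 0.403, interval 0.392 to 0.414), and 21481 in G2 phase. Its contacts with the rest of the genome fell by a like amount, to 551 in M phase against 1317 in G1 phase (ratio 0.395, interval 0.357 to 0.437). The printed fragment II:94051-94326 had 138 counts in M phase and 630 in G1 phase. Inside the array the number of pairs of fragments in contact was 135 in M phase and 124 in G1 phase, whereas pairs between the array and the rest of the genome numbered 371 in M phase and 993 in G1 phase. Copies of identical sequence cannot be told apart, so counts and calls of single fragments in the array are uncertain and are not independent of each other. The number of copies that each strain carries was not tested.

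Among the other fragments with the lowest ratios were a subtelomeric fragment and a pair of tRNA genes. I:5559648-5559975, near the right end of chromosome I at the gene ftm4 and annotated as a duplicated region, had 254 counts in M phase and 786 in G1 phase, a log2 ratio of -1.71. The fragments that hold SPATRNAVAL.02 on chromosome I and SPCTRNAVAL.11 on chromosome III, genes for the valine tRNA with the TAC anticodon, had 32 and 33 counts in M phase against 99 and 101 counts in G1 phase. Their contact with each other had 24 counts in M phase and 70 in G1 phase (ratio 0.324, interval 0.195 to 0.522).

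Of the 10 fragments with the highest ratios 8 are in the class of LTRs, the remnants of Tf1 or Tf2 elements, as are 142 of the 683 tested. A further 43 tested fragments are classed as Tf2 retrotransposons, and these can hold an LTR too. Over these 142 fragments 1 was at least 2-fold higher in M phase and 8 at least 2-fold lower. The higher one was III:298787-299954, with 296 counts in M phase and 135 in G1 phase (ratio 2.07, interval 1.68 to 2.56). Next was III:2210603-2217263, which holds ski3, a gene of the complex that feeds RNA to the exosome, with 1269 counts in M phase and 737 in G1 phase (ratio 1.63, interval 1.48 to 1.78). III:114627-118162, with the gene ura4 of pyrimidine synthesis, had 994 counts in M phase and 639 in G1 phase (ratio 1.47, interval 1.33 to 1.63). These LTR fragments were lower in G2 phase than in G1 phase, for example 413 counts at III:2210603-2217263.

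Fragment length moved with these ratios. Among fragments that hold repeated sequence, those under 500 bp had 76195 counts in M phase and 124100 in G1 phase (ratio 0.580), and their median log2 ratio was -0.75. Those of 5000 bp and over had 288215 counts in M phase and 243889 in G1 phase (ratio 1.12), and their median was 0.07. Of the 71 fragments called lower 54 were under 500 bp, and their median length was 339 bp against 1306 bp over all 683. Among fragments of at least 1000 bp 10 of 398 were lower. Relative to the median of their own length class, 17 fragments remained 2-fold lower and 3 were 2-fold higher. Against fragments with repeats in the same length class, I:5559648-5559975 stood at -0.957 on the log2 scale. The valine tRNA fragments I:702986-703170 and III:1206686-1207078 stood at -0.957 and -0.941 there, so all of these fell short of 2-fold. In the malate permease array the fragments of 276 bp stood at -1.52, -1.34, -1.33 and -1.22 there, past 2-fold. The array fragment II:99143-99568, of 426 bp, stood at -0.879 and fell short, so not all calls in the array hold within their length class. Repeat-free fragments showed no such gradient, with ratios from 0.705 to 0.904 in the 5 length classes. The part of length in the differences between single fragments was not tested further.

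**Figure D2:**
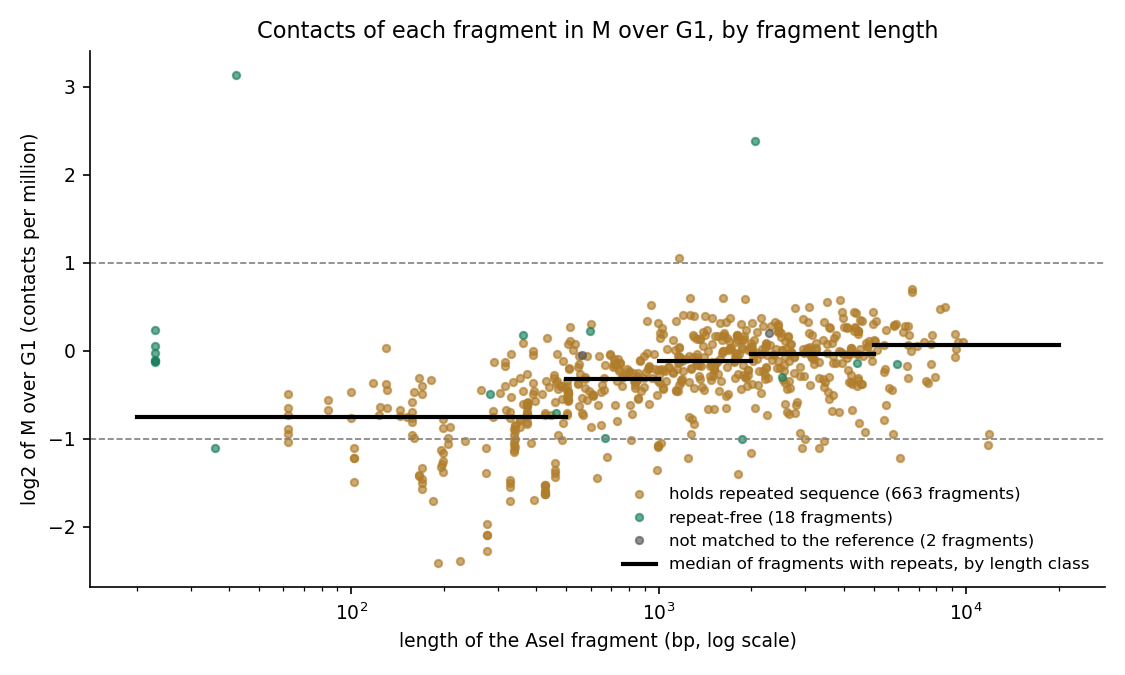
The log2 ratio of M over G1 in CPM (vertical axis) against the length of the AseI fragment (horizontal axis, log scale), 1 point for each of 683 fragments with at least 100 counts. Black lines are medians of fragments with repeats in each length class, from -0.75 under 500 bp to 0.07 at 5000 bp and over, and dashed lines mark 2-fold.

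Repeat-free fragments carry few counts each, and 226 of them reached 30 counts. Their median log2 ratio was -0.47, and 9 were at least 2-fold higher in M phase (3.98%) and 53 at least 2-fold lower (23.5%). The lowest was I:263630-270928, which holds tra2 and fal1, with 4 counts in M phase and 30 in G1 phase. It was followed by II:1205634-1208949, which holds mpr1 and hac1, with 6 counts in M phase and 30 in G1 phase. I:1872038-1878309, with ase1, the microtubule bundler of the mitotic spindle, had 6 counts in M phase and 25 in G1 phase. Beside the fragments at SPBC1348.12, the highest were I:4612395-4613054, with 35 counts in M phase and 4 in G1 phase, of which 21 in M phase and 1 in G1 phase are its contact with II:34939-36989, and II:1817265-1817342, in the terminal repeat of Tf2-9, with 39 counts in M phase and 8 in G1 phase. At these counts the intervals are wide, from 0.0322 to 0.358 for the ratio of the lowest fragment.

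Summed over annotation classes, the ends of contacts were more frequent in M phase at centromeres and less frequent at rRNA and tRNA genes. Centromeric repeats, the dg, dh and core sequences that carry heterochromatin and the kinetochore, held 889773 ends in M phase and 757717 in G1 phase, a log2 ratio of 0.15 (ratio 1.11), or 34.8% of all ends in M phase against 31.4% in G1 phase. In G2 phase their ratio over G1 was 1.25. Single centromeric fragments did not follow the sum. Over 98 tested their median log2 ratio was -0.235, with 0 at least 2-fold higher and 4 at least 2-fold lower, where 10.4% of all fragments were lower. LTRs held 374495 ends in M phase and 341460 in G1 phase (log2 ratio 0.05), and Tf2 retrotransposons 432130 in M phase and 398121 in G1 phase (log2 ratio 0.04). On the lower side, rRNA genes outside the rDNA held 19770 ends in M phase and 24146 in G1 phase, a log2 ratio of -0.37. tRNA genes held 53962 ends in M phase and 59104 in G1 phase, a log2 ratio of -0.21, and 12 of their 91 tested fragments were at least 2-fold lower, near the 10.4% of all fragments. Protein-coding genes had a log2 ratio of -0.16, and fragments with nothing annotated, whose median length was 270 bp, one of -0.25. These differences are small beside the 2-fold mark, and the largest between classes was 0.52 on the log2 scale.

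Among fragments under 1000 bp every class but pseudogenes had a ratio below 1, although the interval of snRNA and snoRNA genes held 1. In fragments of at least 1000 bp centromeric repeats stood at 0.20, LTRs at 0.09, tRNA genes at -0.15 and rRNA genes at -0.39, all as log2 of M over G1. In fragments under 1000 bp centromeric repeats stood at -0.35, LTRs at -0.30, tRNA genes at -0.53 and rRNA genes at -0.33. Scaling by the median fragment raised every class by 0.22, which turned tRNA genes to 0.01 and protein-coding genes to 0.06 on the log2 scale and left rRNA genes at -0.15.

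**Figure D3:**
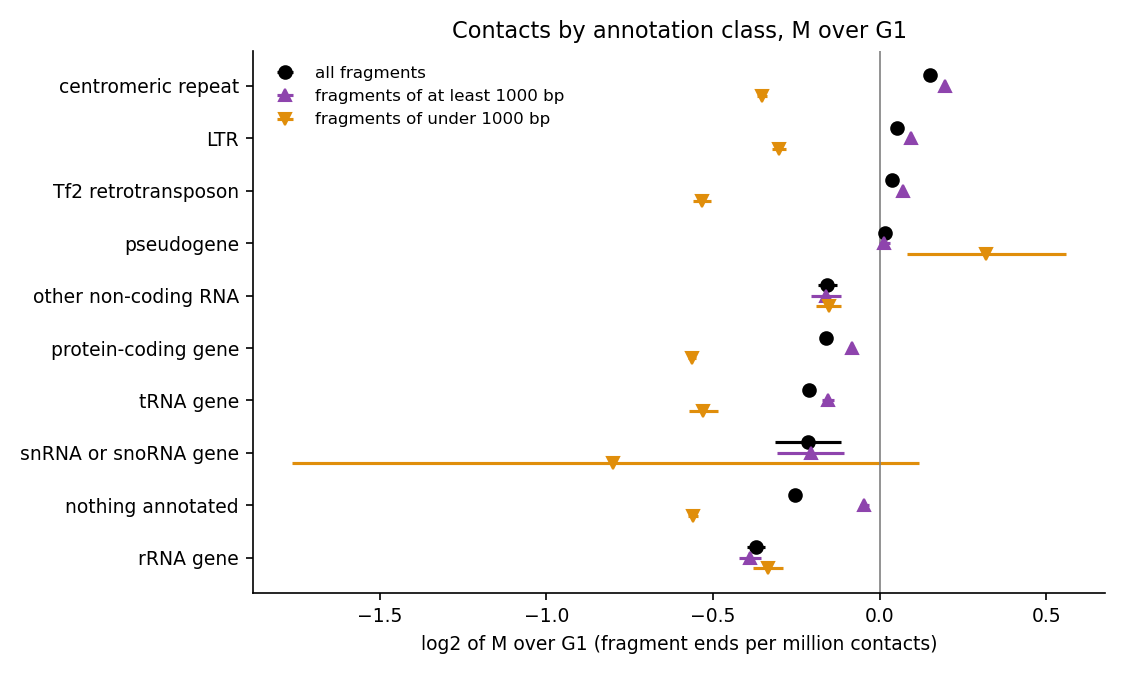
The log2 ratio of M over G1 (horizontal axis, fragment ends scaled as CPM) for 10 annotation classes, over all fragments (black circles), those of at least 1000 bp (purple triangles) and those under 1000 bp (orange triangles). Bars are 95% intervals computed on fragment ends. A contact with both ends in the same class is counted at each end, so the bars are narrower than counting error. Centromeric repeats are highest at 0.15 and rRNA genes lowest at -0.37 over all fragments.

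Pairs of classes differed more than single classes. Contacts of Tf2 retrotransposons with LTRs numbered 39882 in M phase and 29351 in G1 phase (ratio 1.28, interval 1.26 to 1.30), and in G2 phase they were at 0.632 of G1 phase. Contacts of LTRs with each other numbered 130448 in M phase and 116284 in G1 phase (ratio 1.06). Those of Tf2 retrotransposons with each other numbered 194071 in M phase and 181408 in G1 phase (ratio 1.01). tRNA genes with tRNA genes had 10908 counts in M phase and 13485 in G1 phase (ratio 0.764, interval 0.745 to 0.784), and rRNA genes with each other 4934 in M phase and 6058 in G1 phase (ratio 0.770). Contacts of Tf2 retrotransposons and of centromeric repeats with protein-coding genes, nearly all without shared sequence, were among the lowest, where all contacts without shared sequence had a ratio of 0.721. Tf2 retrotransposons with protein-coding genes had 2349 counts in M phase and 3761 in G1 phase (ratio 0.590, interval 0.560 to 0.622), and centromeric repeats with protein-coding genes 6379 in M phase and 8565 in G1 phase (ratio 0.704).

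Over all counts, contacts between the centromeres of different chromosomes were more frequent in M phase. Contacts between 50 kb bins that hold centromeric repeats on different chromosomes numbered 264309 in M phase and 215914 in G1 phase (ratio 1.16, interval 1.15 to 1.16), with 302933 in G2 phase. On the same chromosome they numbered 193943 in M phase and 172469 in G1 phase (ratio 1.06). Without shared sequence, and scaled to the sum of such contacts, the ratios were 1.39 (interval 1.25 to 1.53) between chromosomes, from 795 counts in M phase and 752 in G1 phase, and 1.69 (interval 1.49 to 1.91) on the same chromosome. In CPM of all contacts, the scale on which contacts without shared sequence as a whole were lower, these ratios were 0.999 (interval 0.903 to 1.11) between chromosomes and 1.22 (interval 1.07 to 1.38) on the same chromosome. G2 phase, scaled to the sum of such contacts, lay above both, at 1.83 and 2.04 of G1 phase. The outermost bins of chromosomes I and II had 123134 counts between chromosomes in M phase and 121552 in G1 phase (ratio 0.957). Contacts of centromere bins with these end bins were lower, with 316 counts in M phase and 483 in G1 phase between chromosomes (ratio 0.618, interval 0.535 to 0.714). Without shared sequence and on that scale this ratio was 0.859 (interval 0.743 to 0.992).

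The 252 bins of 50 kb made 964 pairs with at least 100 counts. Of these 16 were at least 2-fold higher in M phase (1.66%) and 18 at least 2-fold lower (1.87%), with a median log2 ratio of 0.07. Scaled by the median fragment ratio, 55 were higher and 8 lower. In every one of the 16 higher pairs the contact with the most counts joined LTR or Tf2 fragments at both ends, which held for 588 of the 964. The highest was the pair of bins at III:100001-150000 and III:450001-500000, with 132 counts in M phase and 36 in G1 phase (ratio 3.46, interval 2.38 to 5.16) and 22 in G2 phase. Its leading contact joins the LTR fragment of ura4 to another LTR, with 116 counts in M phase and 28 in G1 phase. Next came I:3350001-3400000 with II:3450001-3500000, at 115 counts in M phase and 36 in G1 phase (ratio 3.02), led by a Tf2 fragment and an LTR fragment beside zfs1, a zinc finger gene of mRNA decay and mating.

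In 2 of the 18 lower pairs the leading contact had an LTR at 1 end or both. In 11 of the 18 the leading contact had a tRNA gene at 1 end or both, against 19.1% of all tested pairs. These pairs do not all stand for separate tRNA genes. The tRNA fragment III:925651-926456 was in the leading contact of III:900001-950000 with each of I:3700001-3750000, I:5000001-5050000 and II:1600001-1650000. The lowest was I:700001-750000 with III:1200001-1250000, the bins of the valine tRNA genes above, with 37 counts in M phase and 113 in G1 phase (ratio 0.309, interval 0.207 to 0.452). I:3700001-3750000 with III:900001-950000, a single contact between tRNA fragments, had 30 counts in M phase and 90 in G1 phase. The largest counts among the lower pairs were those of the malate permease array, with 3853 in M phase and 8970 in G1 phase for II:50001-100000 with itself, and 3923 in M phase and 9095 in G1 phase for that bin with II:100001-150000. The bin II:50001-100000 with itself held 86 pairs of fragments in contact in M phase and 67 in G1 phase.

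Pairs of bins were also compared on contacts without shared sequence, where 225 reached 30 counts. Scaled to the sum of such contacts, 31 were at least 2-fold higher in M phase (13.8%) and 12 at least 2-fold lower (5.33%). The highest joined neighbouring bins near the right end of chromosome I, I:5500001-5550000 with I:5550001-5600000, at 27 counts in M phase and 7 in G1 phase (ratio 5.06, interval 2.15 to 13.8). The next joined the centromere bin of chromosome II, II:1600001-1650000, to its left neighbour, at 34 counts in M phase and 9 in G1 phase (ratio 4.95, interval 2.33 to 11.7). Both were spread over many contacts, none of them above 2 counts in M phase. The lowest was I:5050001-5100000 with III:250001-300000, at 6 counts in M phase and 29 in G1 phase (ratio 0.271, interval 0.0921 to 0.665), of which 28 counts in G1 phase were a single contact.

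**Figure D4:**
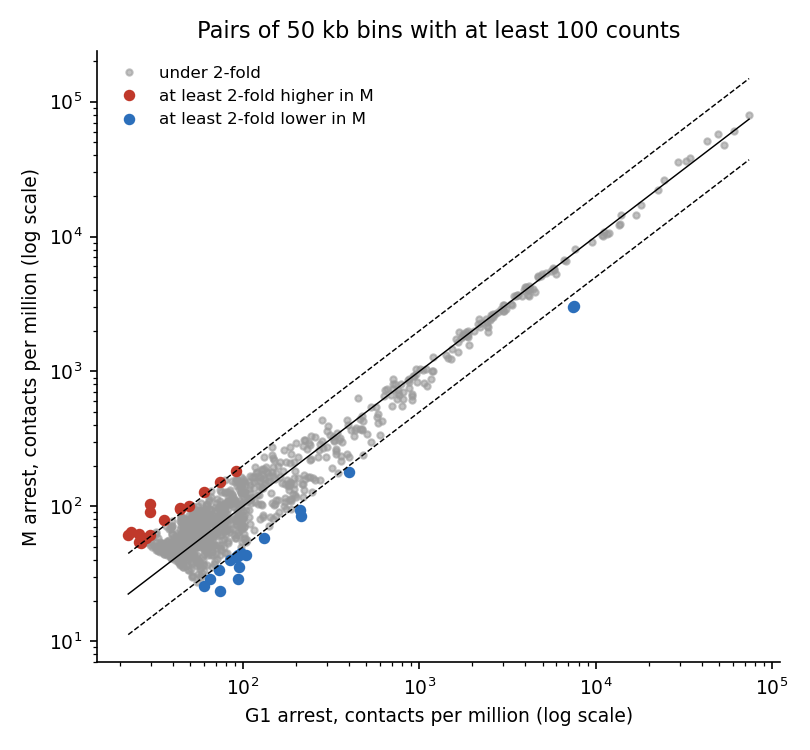
CPM in M arrest (vertical axis, log scale) against CPM in G1 arrest (horizontal axis, log scale) for 964 pairs of 50 kb bins with at least 100 counts over both. The solid line is equality and the dashed lines are 2-fold, with 16 pairs above (red) and 18 below (blue), most of them at low counts except the bins of the malate permease array.

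The share of contacts within chromosomes depended on what was counted. Over all counts it was 48.4% in M phase (interval 48.3 to 48.5) and 50.01% in G1 phase (interval 49.9 to 50.1), 1.61 percentage points lower in M phase. With each pair of fragments counted 1 time it was 38.3% in M phase (interval 37.8 to 38.7) and 35.9% in G1 phase (interval 35.4 to 36.3), and in contacts without shared sequence 39.6% in M phase and 37.7% in G1 phase. Contacts within chromosome II were lower in M phase, with 133885 counts in M phase and 136868 in G1 phase (ratio 0.924), and those between chromosomes II and III higher, with 167622 in M phase and 143734 in G1 phase (ratio 1.10). Without contacts inside the malate permease array the ratio within chromosome II was 1.003 (interval 0.995 to 1.01). Among contacts without shared sequence, scaled to their sum, the ratios were 1.03 (interval 0.990 to 1.07) within chromosome II and 1.001 (interval 0.967 to 1.04) between II and III.

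Short-range contacts along the chromosomes were more frequent in M phase. Among contacts without shared sequence, those between fragments 2 to 100 kb apart numbered 1695 in M phase and 1221 in G1 phase, or 4.85% (interval 4.63 to 5.08) in M phase and 2.66% (interval 2.52 to 2.82) in G1 phase. The ratio of these shares was 1.82 (interval 1.690 to 1.960), and in CPM of all contacts it was 1.31 (interval 1.22 to 1.41). G2 phase had 4.01%, below M phase, while in CPM of all contacts it stood at 1.33 of G1 phase, level with M phase. The ratio was highest between 10 and 20 kb, at 2.09 (interval 1.72 to 2.54). It was 1.26 between 100 and 200 kb, and from 200 kb to 1000 kb its intervals held 1. Above 1000 kb it was slightly lower in M phase, at 0.932 up to 2000 kb and 0.952 beyond. Under 1 kb, where G2 phase stood highest, M and G1 phase did not differ at this depth (ratio 1.05, interval 0.939 to 1.18).

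As a share of all contacts without shared sequence inside it, the difference was present on each chromosome and in each kind of region. In counts, contacts 2 to 100 kb apart within chromosome II lay close, at 616 in M phase and 575 in G1 phase. They numbered 490 in M phase and 339 in G1 phase within chromosome I, and 589 in M phase and 307 in G1 phase within chromosome III. Ratios in CPM of all contacts are not given by chromosome or region. Within chromosome I such contacts were 8.88% in M phase and 4.59% in G1 phase, within chromosome II 14.5% in M phase and 10.6% in G1 phase, and within chromosome III 14.4% in M phase and 6.83% in G1 phase. G2 phase had 5.46% within chromosome I, 17.7% within chromosome II, above M phase, and 6.92% within chromosome III. With both ends in the arms the share was 4.21% in M phase and 2.18% in G1 phase, and 2.07% in G2 phase. In the centromeres and 50 kb beside them it was 32.1% in M phase and 23.3% in G1 phase, and 21.9% in G2 phase. In the outer 100 kb of chromosomes I and II it was 24.1% in M phase and 19.0% in G1 phase, and 21.8% in G2 phase. In the 100 kb beside the rDNA, on chromosome III, it was 17.9% in M phase and 3.88% in G1 phase, from 79 counts in M phase and 15 in G1 phase.

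It was spread over many pairs of fragments. Counted 1 time each, 1342 pairs in M phase and 623 in G1 phase lay 2 to 100 kb apart, 4.44% of pairs without shared sequence in M phase and 1.61% in G1 phase, with 1.63% in G2 phase. Without the 10 fragments with the most such contacts the ratio was 2.14 (interval 1.97 to 2.32), and with fragments of at least 1000 bp at both ends it was 1.78 (interval 1.56 to 2.03). Between 2 repeat-free fragments the counts were few, 89 of 1695 in M phase and 53 of 1221 in G1 phase. There the interval of the ratio held 1 (1.27, interval 0.891 to 1.81). Most contacts at 2 to 100 kb thus had a fragment that holds repeated sequence at 1 end or both. How ends in such sequence were placed is not given, so these pairs may not be independent. Contacts with an end in a protein-coding gene showed it (ratio 2.19), as did those with an end in a centromeric repeat (ratio 2.15), while for Tf2 retrotransposons the interval held 1 (ratio 1.09, interval 0.760 to 1.54).

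**Figure D5:**
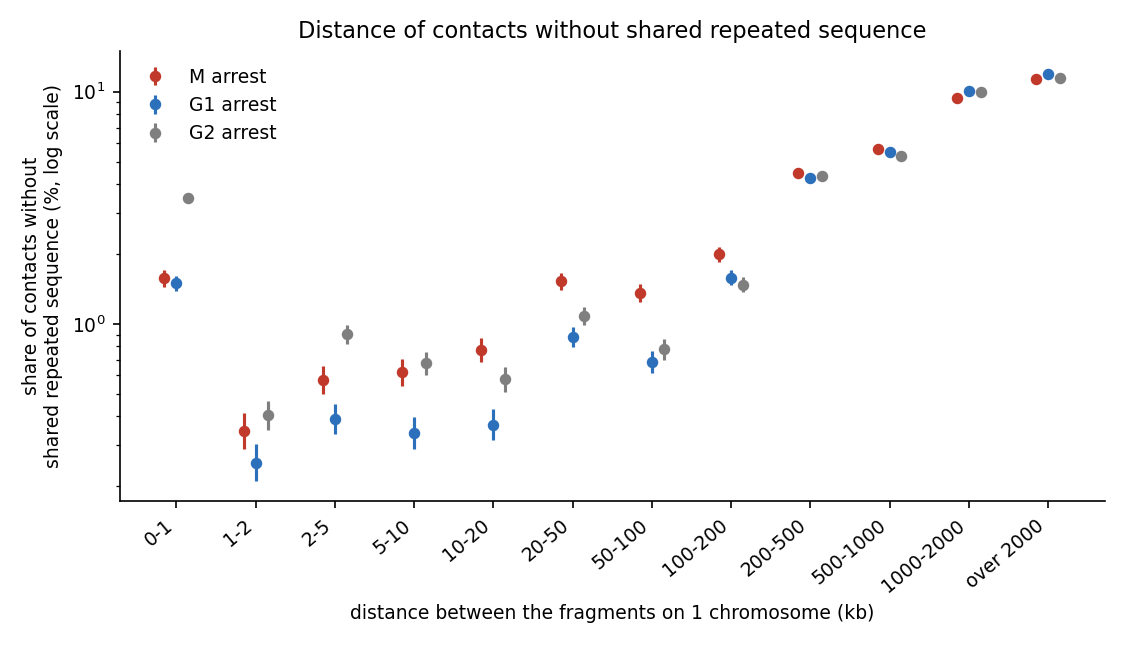
Share of all contacts without shared repeated sequence (vertical axis, percent, log scale) in 12 classes of distance on 1 chromosome (horizontal axis, kb) for M arrest (red), G1 arrest (blue) and G2 arrest (grey). Bars are 95% Wilson intervals. From 2 to 100 kb M arrest lies above G1 arrest in each class, while the 2 arrests lie within 1.1-fold from 200 kb on.

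Genes tied to the arrests were described from lists of genes. Over all 5113 protein-coding genes 1891 lay on fragments with at least 30 counts, of which 6 were at least 2-fold higher in M phase (0.317%) and 273 at least 2-fold lower (14.4%), with a median log2 ratio of -0.32. MBF targets, the G1 and S phase genes under Cdc10, had 127 counts in M phase and 199 in G1 phase over 12 genes (ratio 0.603, interval 0.479 to 0.757). Of 2 that reached 30 counts 1 was lower, the S phase cyclin gene cig2 with 21 counts in M phase and 42 in G1 phase. Histone genes had 179 counts in M phase and 299 in G1 phase (ratio 0.566, interval 0.467 to 0.683), and 3 of 7 that reached 30 counts were lower and none higher. The lowest of these was pht1, for histone H2A.Z, with 27 counts in M phase and 65 in G1 phase. Over all genes on repeat-free fragments the median log2 ratio was -0.47 and the summed ratio 0.722 (interval 0.714 to 0.731). The medians were -0.997 for MBF targets, from only 2 genes, and -0.86 for histone genes. Among the histone genes hht2, hhf2, hhf3 and pht1 overlap a fragment with a repeat. That median is thus not on the same footing as that of genes on repeat-free fragments. The differences from other genes were not tested.

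Genes that act in mitosis were described in the same way. Of 14 mitotic and septation genes with 30 counts 1 was lower, ark1, the Aurora kinase, with 81 counts in M phase and 154 in G1 phase, and none was higher, with a median log2 ratio of -0.28 and a summed ratio of 0.782 (interval 0.714 to 0.856). Most counts in that sum lie at imp2, with 379 in M phase and 443 in G1 phase, and spo12, with 146 in M phase and 161 in G1 phase. Both overlap a fragment with a repeat. Of 10 cohesin or condensin genes 2 were lower, rad21, the cleavable cohesin subunit, with 17 counts in M phase and 33 in G1 phase, and cut14, a condensin SMC subunit, with 22 in M phase and 42 in G1 phase. The median of this list was -0.45 on the log2 scale, and its summed ratio of 1.02 is set by mis4, the cohesin loader, with 1808 counts in M phase and 1586 in G1 phase, which overlaps a fragment with a repeat. Of 11 kinetochore or spindle pole genes 1 was lower, spc7, a kinetochore scaffold, with 9 counts in M phase and 25 in G1 phase, and the summed ratio was 0.795 (interval 0.712 to 0.889). That sum is set mostly by ndc80, with 384 counts in M phase and 448 in G1 phase, which also overlaps a fragment with a repeat. Of 4 genes of the anaphase-promoting complex with 30 counts 1 was lower, apc2, with 12 counts in M phase and 23 in G1 phase. The median of this list was 0.05 on the log2 scale, and its summed ratio of 1.07 is set by apc10, with 28988 counts in M phase and 25644 in G1 phase, which overlaps one too. The mutated genes themselves had few counts. The gene nuc2 had 5 counts in M phase and 14 in G1 phase, and cdc10 had 22 in M phase and 13 in G1 phase, with an interval from 0.771 to 3.46 for the ratio at cdc10. Contacts do not measure the allele a strain carries, so these values check no label.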

How the data were processed

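GCC libraries from M phase (nuc2-663) and G1 phase (cdc10-129) arrests were compared, with G2 phase for reference. The authors sequenced AseI-cut, ligated chromatin as 50 bp paired ends and positioned them with the Topography suite and SOAP without mismatches. The submitters' processing notes name the build ASM294v2. The deposited values are raw counts of read pairs for each pair of fragments, with both biological replicates pooled, and the number of unused columns of per-sample values was 0. Coordinates are those of the tables.

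Each pair was used 1 time, same-fragment and adjacent pairs and pairs with an end in the rDNA were left out, and counts were scaled per 1000000 (CPM) (Python 3.11.15, pandas 2.3.3, scipy 1.17.1, statsmodels 0.14.6). A count of 0 was set to 3 counts in ratios. A fragment went to the first class that applies, in the order centromeric repeat, Tf2 retrotransposon, LTR, tRNA, rRNA, snRNA or snoRNA, pseudogene, other non-coding RNA and protein-coding gene, from the annotation deposited with the counts, and a class total sums the ends of contacts. Genes come from RefSeq ASM294v3, by AseI ends. A contact shares repeated sequence when a fragment or its neighbour holds 50 bp of the fragment at the other end. The text names the 10 highest and 10 lowest fragments and bin pairs with 100 counts, or examples of them, the 5 and 5 repeat-free fragments with 30 counts, every class and the listed genes. Members, lists and tests were chosen with earlier results of these data known. The code that makes the 2-fold calls was tested on simulated counts, which checks the code and not the results. Alternatives were other scalings, count minimums and bin sizes, pairs counted 1 time, pairs with at least 3 counts, and pairs without shared sequence.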

Additional observations from a re-analysis of the deposited data

Results flagged for a closer look

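Pairs that join an AseI fragment to itself were left out of every comparison. In M phase 160 counts outside the rDNA, over 133 fragments, joined a fragment to itself. In G1 phase they numbered 16, over 16 fragments, and in G2 phase 8. Same-fragment pairs in the rDNA had 190 counts in M phase and 4 in G1 phase. Pairs of adjacent fragments, also left out, went the other way, with 12912 counts in M phase and 19964 in G1 phase, and 34631 in G2 phase. The difference was not tested, since each phase is 1 pooled table.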

How the results depend on the processing

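No paired analysis was possible because each phase is 1 table in which both replicates are pooled, and for the same reason no replicate could be left out. The depth of single fragments limits what could be read: most pairs had a single count. Scaled by the median fragment ratio, 41 fragments and 8 bin pairs were lower and 55 bin pairs higher in M phase, and the log2 ratios of tRNA (0.0074), snRNA or snoRNA (0.0053), other non-coding RNA (0.064) and protein-coding genes (0.059) turned positive. With each pair counted 1 time, 2 of 350 fragments were lower, 4 of 16 bin pairs higher and 0 lower, the spread between classes was 0.71, the log2 ratio of contacts without shared sequence was -0.069, that of Tf2 retrotransposons -0.071, of tRNA genes 0.017 and of unannotated fragments 0.15, and the malate permease bins turned to 0.65 and 0.64. The intrachromosomal difference turned to 2.39 percentage points with each pair counted 1 time and to 1.91 without shared sequence. It was -0.067 with the rDNA, -1.86 with pairs of at least 3 counts and -1.06 without pairs under 10 kb. With pairs of at least 3 counts in M or G1, 1 fragment was higher, the class spread was 0.50 and pseudogenes stood at -0.0010. Without pairs that share a 50 bp stretch, 6 of 310 fragments were lower, 1 bin pair higher and 0 lower, the class spread was 0.57, and Tf2 retrotransposons (-0.23), LTRs (-0.00066) and unannotated fragments (0.15) changed sign. Without the 10 largest pairs the class spread was 0.50. With a minimum of 30 counts, 10 fragments were higher and 126 lower, and 98 bin pairs were higher and 85 lower. With bins of 100 kb, 10 bin pairs were higher. Contacts between 2 repeat-free fragments had a log2 ratio of 0.33, where contacts without shared sequence had -0.47. Alternatives chosen after seeing the data gave 10 lower fragments at 1000 bp and over and a class spread of 0.58 there, 17 relative to their length class, 47 without the malate permease array, and -0.49 for contacts without shared sequence without the 2 fragments that rose most. The ratios within chromosome II without the malate permease array, and of centromere and 2 to 100 kb contacts in CPM of all contacts, were also added then and stand beside their results. The 20 named fragments kept their direction in all 172 values computed, 33 of which moved past the counting interval. They were chosen by their ratios in these counts, and the settings reuse the same counts, so this is no support for their direction. Among classes 11 of 70 values reversed, and among named bin pairs 2 of 121. The ratio of contacts at 2 to 100 kb kept its direction in all 19. Most of these are overlapping parts of the same counts, and all are shares of contacts without shared sequence. This is no support for its direction either. For Tf2 retrotransposons and between repeat-free fragments the interval held 1. Settings that left a named bin pair or fragment under its minimum gave no value for it. The cause of each change was not tested, except that fewer features reach a higher minimum.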
